A study of Mus musculus with 7 samples.

Results

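Expression of the TGF-β ligands, their receptors and the latent TGF-β binding proteins was followed in mouse embryonic fibroblasts (MEFs) under 6 stress conditions. The set was chosen by gene symbol and comprised 3 ligands (Tgfb1, Tgfb2 and Tgfb3), 3 receptors (Tgfbr1, Tgfbr2 and Tgfbr3) and 4 latent binding proteins (Ltbp1, Ltbp2, Ltbp3 and Ltbp4). Each of the 10 genes stood on a single row of the deposited table of 49382 genes. The RNA-seq libraries came from wild type primary MEFs of embryonic day 13.5 to 14.4, from which the head and fetal liver had been discarded, grown in serum-containing DMEM and used between passages 3 and 7. These days and passages are those of the labels. The general methods of the study give a slightly later last day and a later first passage. One library was made from control cells, for which no duration is given, and 1 from each condition, with 7 libraries in all. Cells were kept without glucose, without glutamine or at 0.1% oxygen (hypoxia), or treated with 1 μM thapsigargin (ER stress), each for 10 h, while 10 μM sodium arsenite (oxidative stress) and 100 mM added NaCl (osmotic stress) were each given for 3 h. Thapsigargin blocks the pump that fills the calcium store of the endoplasmic reticulum (ER), which disturbs protein folding there.

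TGF-β is secreted as a dimer that stays bound to its own cleaved propeptide and is inactive in this latent form. Latent TGF-β binding proteins link the complex to fibrillin and fibronectin fibers of the matrix, and integrins and proteases can release the ligand. Free TGF-β binds the type II receptor, which recruits and activates the type I receptor, and this kinase phosphorylates SMAD2 and SMAD3. In fibroblasts the pathway is best known for inducing matrix and contractile genes.

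Values are TPM, a length-corrected share of the transcripts of a library, so that levels of different genes can be set side by side. A change is the difference of log2(TPM + 1) between a condition and the control library, and a gene is said to rise or fall when that change exceeded 2-fold. With 1 library per condition there was no spread between replicates to compare with and no test, so neighboring levels cannot be ordered with any confidence. TPM carries no read counts, and the sequencing depth is unknown. All 6 changes of a gene were taken from the same control library. Each of the 10 genes was among the 12909 whose average over the libraries reached 2 TPM, which serve here as the background. Because TPM is a share of a library, less of a transcript per cell and fewer cells that make it cannot be told apart.

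Genes known to respond to each treatment moved in its library: Hmox1 went from 266 to 6055 TPM with arsenite, Hspa5 from 1165 to 12611 TPM with thapsigargin, Bnip3 from 26.7 to 797 TPM in hypoxia, Akr1b3 from 90.5 to 575 TPM with NaCl, Txnip from 70.7 to 16.1 TPM without glucose and Atf3 from 3.02 to 21.3 TPM without glutamine. Txnip was lower still with NaCl, at 7.22 TPM, and Atf3 was higher with thapsigargin and arsenite, at 112 and 88.3 TPM. Neither of them therefore singles out its treatment, whereas each of the other check genes was highest in its own library. All 10 fibroblast markers examined were above the background level, with a summed level between 6169.7 and 12819.8 TPM. The summed level of 6 macrophage markers was between 6.76 and 16.6 TPM, and only Cd68 of the 6 reached the background level. That of 5 endothelial markers was between 4.09 and 9.07 TPM, and only Kdr of the 5 reached it. The sums were higher for 5 epithelial markers, between 41.6 and 159 TPM, and for 5 skeletal muscle markers, between 51.0 and 187 TPM. In each of these lists 2 of the 5 reached the background level. The methods also describe a sort that removes leukocytes and macrophages from MEFs, which the labels do not state for these libraries. Mitochondrially encoded genes took between 5.09% and 9.25% of a library.

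The dominant pattern was a loss in ER stress. There 4 of the 10 genes fell by more than 2-fold and 0 rose, beside 11% of all 12909 genes that fell and 8.6% that rose. In the other conditions 0 of the 10 genes passed 2-fold in either direction. Of all genes, 1.83% rose and 2.41% fell in glucose depletion, 3.21% rose and 3.21% fell in glutamine depletion, 3.57% and 2.64% in hypoxia, 3.94% and 4.85% in oxidative stress, and 3.08% and 8.76% in osmotic stress. Once the overall median had been subtracted, the share of risers among the genes that passed went from 44.8% to 59.7% in oxidative stress, from 50% to 59.9% in glutamine depletion, from 26.0% to 34.0% in osmotic stress and from 57.5% to 61.6% in hypoxia. Of the 50 changes outside ER stress, 47 were within 1.5-fold. ER stress gave the lowest level of 9 of the 10 genes, the exception being Tgfbr1, whereas the highest level was found in glutamine depletion for 5 genes, in osmotic stress for 4 and in glucose depletion for 1.

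**Figure D1:**
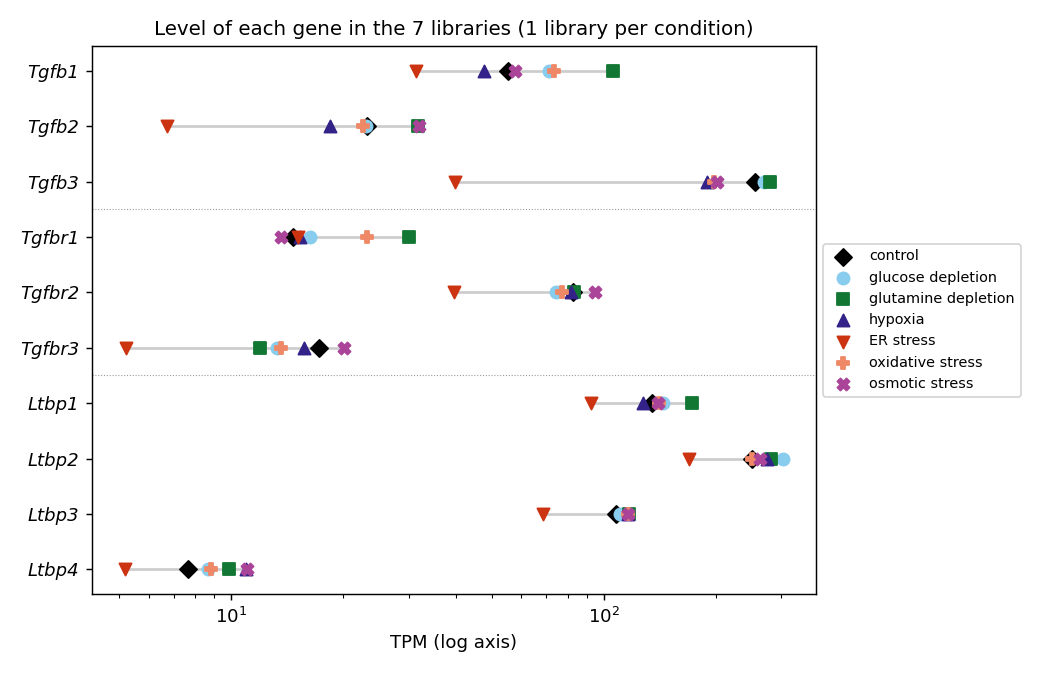
TPM of the 10 genes (rows, on a log axis) in the 7 libraries, 1 point per library, with the gray line spanning the lowest to the highest. The ER stress point lies to the left of all others in every row but that of Tgfbr1.

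**Figure D2:**
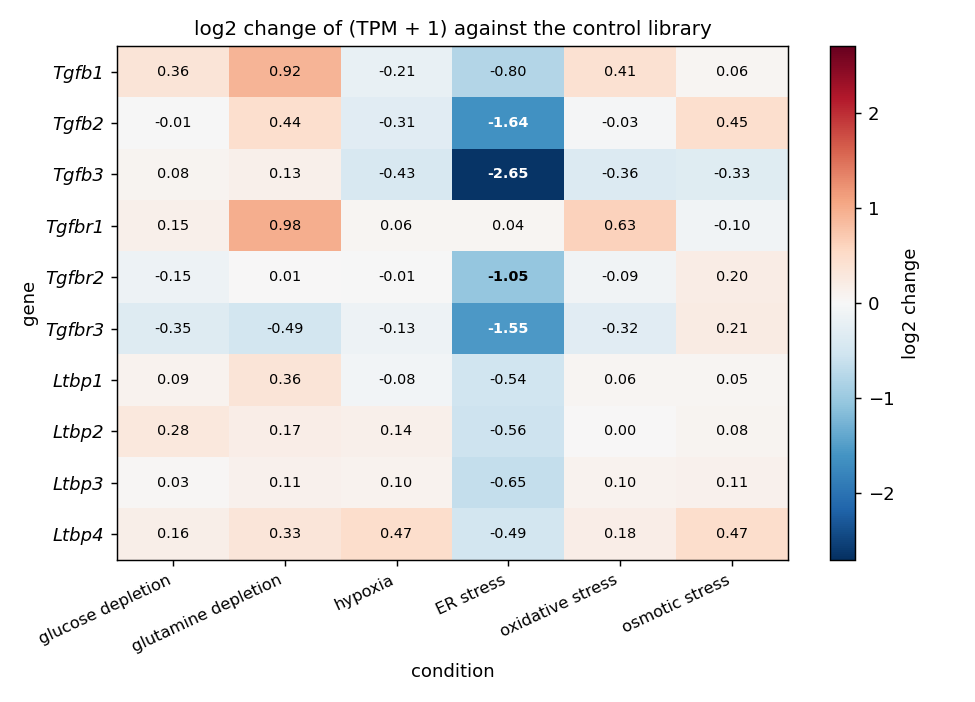
Log2 change of (TPM + 1) against the control library for the 10 genes (rows) in the 6 conditions (columns), with the value in each cell and changes past 2-fold in bold. The 4 bold cells, from -2.65 to -1.05, are all in the ER stress column.

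Among the ligands, Tgfb3 was the most abundant transcript in every library. Tgfb3 (ENSMUSG00000021253), on chromosome 12 from 86056745 to 86079041 on the minus strand (GRCm38, as are all positions here), was at 255 TPM in control cells, 269 in glucose depletion, 279 in glutamine depletion, 189 in hypoxia, 198 in oxidative stress, 202 in osmotic stress and 39.9 in ER stress. The 6 libraries other than ER stress thus lay within a 1.47-fold range, and the ER stress library was far below them, at 15.6% of the control. The log2 change was -2.65, and 1.59% of all genes, or 0.434% of the 11300 protein-coding ones, fell at least as far. In hypoxia, oxidative stress and osmotic stress Tgfb3 was at 74.2%, 77.7% and 79.2% of the control.

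Tgfb2 (ENSMUSG00000039239), whose product depends on the coreceptor betaglycan for efficient binding to the type II receptor, lies on chromosome 1 from 186622792 to 186705989 on the minus strand. It was at 23.1 TPM in control cells, 22.9 in glucose depletion, 31.7 in glutamine depletion, 18.4 in hypoxia, 22.6 in oxidative stress, 31.9 in osmotic stress and 6.73 in ER stress. ER stress again stood below every other library, with a log2 change of -1.64, a fall reached by 4.05% of all genes. The osmotic and glutamine depletion libraries were the highest, at 1.38 times the control in both, within 2-fold.

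Tgfb1 (ENSMUSG00000002603), the isoform best known from fibrosis and immune regulation, lies on chromosome 7 from 25687002 to 25705077 on the plus strand. It was at 55.3 TPM in control cells, 71.2 in glucose depletion, 106 in glutamine depletion, 47.8 in hypoxia, 73.6 in oxidative stress, 57.6 in osmotic stress and 31.4 in ER stress. Glutamine depletion was its highest library, as it was for Tgfb3, but at 1.91 times the control (log2 change 0.92) where Tgfb3 was at 1.09 and Tgfb2 at 1.38 times, and the change of Tgfb1 was reached by 3.64% of all genes. This value lay just inside the 2-fold limit and passed it, at 1.01, once the overall median had been subtracted. In ER stress Tgfb1 was at 56.8% of the control (log2 change -0.80), less of a reduction than for Tgfb2 and Tgfb3.

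The ligands moved by different amounts, and their mixture differed between libraries. Tgfb3 made up 76.5% of the summed ligand TPM in control cells, 74.1% in glucose depletion and in hypoxia, 69.3% with NaCl, 67.3% with arsenite, 67.0% in glutamine depletion and 51.1% in ER stress. The share of Tgfb1 was 16.6% in control cells, 19.6% without glucose, 25.4% without glutamine and 40.2% in ER stress. The TPM ratio of Tgfb3 to Tgfb1 was accordingly highest in control cells, at 4.61, and lowest in ER stress, at 1.27. In ER stress the larger share of Tgfb1 came with a lower level of Tgfb1 itself, whereas in glutamine depletion it came with a higher one. The summed ligand level was 333 TPM in the control, 416 TPM in glutamine depletion, 255 TPM in hypoxia and 78.0 TPM in ER stress, the last being 23.4% of the control.

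**Figure D3:**
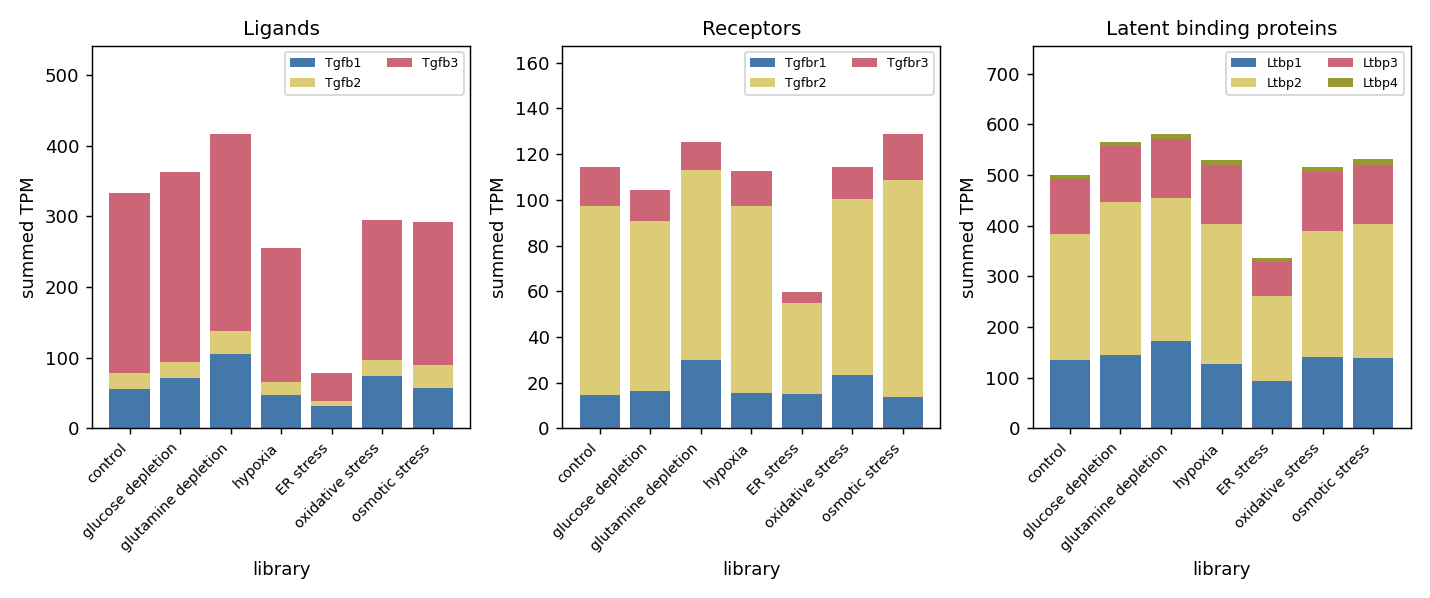
Summed TPM of the ligands, the receptors and the latent binding proteins (panels, each with its own axis from 0) in the 7 libraries, with each gene's part in color. Summed ligand TPM in ER stress was 23.4% of the control, against 52.3% for the receptors and 67.1% for the latent binding proteins.

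The sequences just before the transcription starts are shown for the pair of genes with the highest values in glutamine depletion relative to the control, Tgfb1 and Tgfbr1, for Tgfb2, which fell in ER stress, and for Ltbp1, a carrier that stayed within 2-fold throughout. The RefSeq table (GRCm38.p6) had 12 starts for 8 of the 10 genes. It had none for Tgfb3 and Tgfbr3, so Tgfb3, the gene that fell furthest in ER stress, could not be examined. Each run is the 250 bases before the start, 5′ to 3′ on the strand of the gene, and capitals mark matches on either strand to TGANTCA (the AP-1 motif), ACGTG (core of the hypoxia response element), TGACGT (most of the cAMP response element), TGATGNAA (the composite element of ATF4), GGGCGG (the GC box) and TATAAA (the TATA box). The last 2 were added after the sequences were seen.
Tgfb1, chr7:25686752-25687001, plus strand: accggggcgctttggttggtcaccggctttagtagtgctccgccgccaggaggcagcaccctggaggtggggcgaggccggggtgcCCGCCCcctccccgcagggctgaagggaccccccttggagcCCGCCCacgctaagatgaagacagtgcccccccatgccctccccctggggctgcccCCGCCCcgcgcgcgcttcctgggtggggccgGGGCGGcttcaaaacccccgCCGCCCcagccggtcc
Tgfbr1, chr4:47352972-47353221, plus strand: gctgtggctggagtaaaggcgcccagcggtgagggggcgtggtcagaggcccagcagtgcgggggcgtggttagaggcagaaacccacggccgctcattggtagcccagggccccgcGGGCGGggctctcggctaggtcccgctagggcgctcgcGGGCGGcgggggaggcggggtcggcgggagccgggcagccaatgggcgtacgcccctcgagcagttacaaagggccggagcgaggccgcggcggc
Tgfb2, chr1:186705990-186706239, minus strand: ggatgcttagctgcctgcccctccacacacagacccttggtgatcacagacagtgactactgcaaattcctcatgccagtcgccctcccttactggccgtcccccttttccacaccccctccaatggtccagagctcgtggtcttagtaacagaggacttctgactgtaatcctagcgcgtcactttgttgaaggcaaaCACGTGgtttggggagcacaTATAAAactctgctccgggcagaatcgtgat
Ltbp1, chr17:75005279-75005528, plus strand: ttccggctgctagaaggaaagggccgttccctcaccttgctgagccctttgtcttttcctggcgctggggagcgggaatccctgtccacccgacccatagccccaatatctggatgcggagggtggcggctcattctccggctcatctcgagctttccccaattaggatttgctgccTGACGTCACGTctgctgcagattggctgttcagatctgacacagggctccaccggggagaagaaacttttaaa

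Where the table had several starts, the one nearest the 5′ end of the gene is shown. The windows of Tgfb1 and Tgfbr1 were rich in G and C, at 75.2% and 74.8%, against a median of 52.4% over 32851 mouse starts. They held 5 and 2 matches to GGGCGG, which 32.7% of all windows contain, and none to the other motifs. The Tgfb2 window was at 53.6% and had a TATAAA, present in 12.4% of windows, and a CACGTG, which reads ACGTG on both strands in overlapping positions. ACGTG occurs in 16.6% of windows. In the Ltbp1 window TGACGT matched on both strands and overlapped an ACGTG, and 6.47% of windows contain TGACGT. The second start in the table differed for both genes shown that had one: that of Tgfbr1 was at 52.8% G and C and that of Ltbp1 at 50.8%, and neither held any of the motifs. Among the genes not shown, Ltbp4 had starts at 64.4%, 79.2% and 79.2% G and C, with 3, 5 and 7 matches to GGGCGG. The windows of the last 2 overlap, at 27333649-27333898 and 27333664-27333913 on chromosome 7, and all 5 matches of one are among the 7 of the other. Ltbp2 was at 61.6% with 2, while Tgfbr2 at 58.4% and Ltbp3 at 47.2% had none. Their log2 changes in glutamine depletion were 0.33 for Ltbp4, 0.17 for Ltbp2, 0.01 for Tgfbr2 and 0.11 for Ltbp3. Whether base composition goes with these changes was not tested. All matches are of letters only, and binding of any factor was not measured.

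The receptors behaved differently from each other. Tgfbr2 (ENSMUSG00000032440), the type II receptor that binds free ligand, lies on chromosome 9 from 116084293 to 116175360 on the minus strand. It was at 82.7 TPM in control cells, 74.6 in glucose depletion, 83.2 in glutamine depletion, 81.8 in hypoxia, 77.5 in oxidative stress, 95.0 in osmotic stress and 39.5 in ER stress. The 6 libraries other than ER stress spanned a 1.27-fold range. In ER stress Tgfbr2 was at 47.8% of the control (log2 change -1.05), just outside the 2-fold limit, and 10.1% of all genes fell at least as far. With a pseudocount of 5 TPM its change was -0.98 and no longer passed.

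Tgfbr3 (ENSMUSG00000029287) encodes betaglycan, the coreceptor that presents TGF-β2, and lies on chromosome 5 from 107106570 to 107289629 on the minus strand. Its levels were 17.2 TPM in control cells, 13.3 in glucose depletion, 11.96 in glutamine depletion, 15.7 in hypoxia, 13.6 in oxidative stress, 20.1 in osmotic stress and 5.23 in ER stress. The log2 change in ER stress was -1.55, a fall reached by 4.54% of all genes. Glutamine depletion was the next lowest library, at 69.5% of the control, and Tgfbr3 was the only one of the 10 genes below the control in that condition.

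Tgfbr1 (ENSMUSG00000007613), the type I receptor kinase, was the exception among the 10 genes. Located on chromosome 4 from 47353222 to 47414931 on the plus strand, it was at 14.6 TPM in control cells, 16.3 in glucose depletion, 29.9 in glutamine depletion, 15.3 in hypoxia, 23.1 in oxidative stress, 13.6 in osmotic stress and 15.1 in ER stress. Its level in ER stress was thus close to that of the control (log2 change 0.04), while the other 9 genes were below it. In glutamine depletion Tgfbr1 was at 2.05 times the control by TPM alone. The log2 change with the pseudocount was 0.98, just short of 2-fold, and 3.34% of all genes rose at least as far. In oxidative stress it was at 1.58 times the control (log2 change 0.63), and 6.74% of all genes changed upward at least as far.

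The transcript ratio of the type II to the type I receptor varied with these changes. It was 5.65 in control cells, 4.58 in glucose depletion, 5.34 in hypoxia and 7.002 in osmotic stress. The ratio was lower in oxidative stress, at 3.35, in glutamine depletion, at 2.78, and in ER stress, at 2.61. In oxidative stress and glutamine depletion the lower ratio came with more Tgfbr1 and nearly the same Tgfbr2, whereas in ER stress it came with less Tgfbr2.

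Over all 7 libraries the 4 latent binding proteins varied least, although Tgfbr2 had a narrower range than Ltbp1 and Ltbp4 when ER stress was left aside. Ltbp2 (ENSMUSG00000002020), on chromosome 12 from 84783212 to 84876532 on the minus strand, encodes a microfibril protein that, unlike its relatives, is not known to bind latent TGF-β. Its exons overlap those of D030025P21Rik on the other strand by 764 bases, a gene with a mean of 2.07 TPM. Outside ER stress Ltbp2 ranged from 249 TPM in control cells to 303 TPM in glucose depletion, a 1.21-fold range, with ER stress at 169 TPM. Ltbp1 (ENSMUSG00000001870), on chromosome 17 from 75005568 to 75392512 on the plus strand, is a main carrier of latent TGF-β and ranged there from 128 TPM in hypoxia to 173 TPM in glutamine depletion, with ER stress at 92.4 TPM.

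Ltbp3 (ENSMUSG00000024940), on chromosome 19 from 5740904 to 5758532 on the plus strand, also carries latent TGF-β and is known for its role in bone and teeth. It had the narrowest range, 1.08-fold, from 108 to 117 TPM, with ER stress at 68.6 TPM. Ltbp4 (ENSMUSG00000040488), on chromosome 7 from 27305136 to 27337692 on the minus strand, contributes to elastic fiber assembly and was the least abundant, at 7.65 TPM in control cells and 5.17 TPM in ER stress. It was highest in osmotic stress and hypoxia, at 1.44 and 1.43 times the control. In ER stress the log2 changes of the 4 genes were -0.49 to -0.65, none past 2-fold, and 19.3% to 24.6% of all genes were lowered at least as far.

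The proportion of Ltbp1, Ltbp3 and Ltbp4 transcripts to ligand transcripts therefore differed between libraries. The summed TPM of Ltbp1, Ltbp3 and Ltbp4 was 0.752 times the summed ligand TPM in control cells, 0.723 in glucose depletion, 0.719 in glutamine depletion, 0.903 in oxidative stress and 0.916 in osmotic stress. It was 0.998 in hypoxia, where all 3 ligands were below the control while Ltbp3 and Ltbp4 were above it. In ER stress it was 2.13. These are ratios of transcripts, and protein was not measured.

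As a group, the 10 genes were shifted downward in ER stress, with a median log2 change of -0.72 where that of all genes was 0.00, and 9 of the 10 were below that median. The median of the ligands was -1.64, that of the receptors -1.05 and that of the latent binding proteins -0.55. In glutamine depletion the median of the 10 genes was 0.25, against -0.09 for all genes, and 9 of 10 were above the control. The medians of the 10 genes and of all genes were 0.09 and -0.02 in glucose depletion, -0.05 and -0.05 in hypoxia, 0.03 and -0.16 in oxidative stress, and 0.09 and -0.12 in osmotic stress. The lower median of all genes in both 3 h treatments places a gene with a change near 0 above most genes there.

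**Figure D4:**
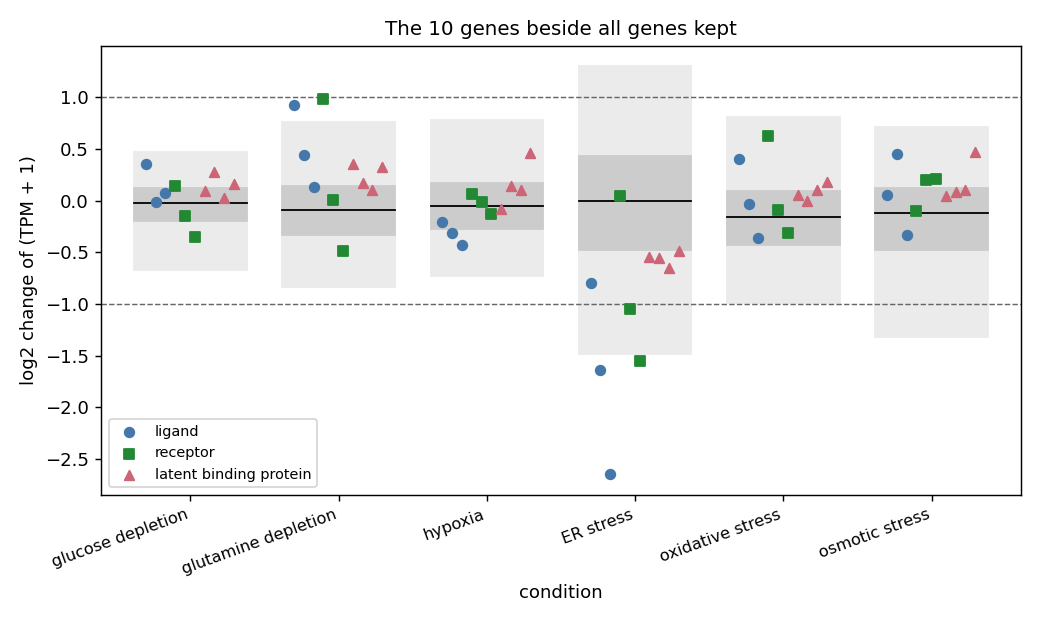
Log2 change of (TPM + 1) of the 10 genes (points, from left to right in the order Tgfb1 to Ltbp4) in each condition, over the 12909 background genes (light band, central 90 percent of genes; dark band, central 50 percent; line, median), with 2-fold marked by dashed lines. In ER stress 3 genes, Tgfb3, Tgfb2 and Tgfbr3, lie below the light band, and in glutamine depletion Tgfb1 and Tgfbr1 lie above it.

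Conditions of the same duration can also be set directly side by side, without the control. Between both nutrient depletions at 10 h, Tgfbr1 was higher without glutamine than without glucose by 0.84 on the log2 scale, Tgfb1 by 0.57 and Tgfb2 by 0.45, while the median of all genes differed by -0.04. Between both 3 h treatments, Tgfbr1 was higher with arsenite than with NaCl by 0.73 and Tgfb1 by 0.35, whereas Tgfbr3 differed by -0.53 and Tgfb2 by -0.48. Tgfb3 was nearly equal in both, at -0.03. Against hypoxia, also at 10 h, ER stress was lower by 2.22 for Tgfb3, 1.42 for Tgfbr3, 1.33 for Tgfb2 and 1.03 for Tgfbr2, where all genes had a median difference of 0.04.

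The wider pathway was read from lists of genes around the ligands and receptors. The first held 21 genes for processing, matrix anchoring, activation and binding of the latent complex, of which 19 were above the background level and Nrros and Itgb6 were not. In ER stress 9 of these 19 fell and 0 rose, beside 11% of all genes that fell and 8.6% that rose, with a median log2 change of -0.89 against 0.00 for all genes. The largest falls were those of Aspn, a small proteoglycan that binds TGF-β, from 147 to 37.2 TPM (log2 change -1.95), Thbs1, an activator of the latent complex, from 4422 to 1305 TPM (-1.76), and Mmp14, a membrane protease, from 678 to 200.4 TPM (-1.75). The list also contained Furin, the protease that cleaves the TGF-β precursor, from 112 to 51.3 TPM (-1.11), and Itgav, a subunit of the activating integrins, from 110.3 to 46.6 TPM (-1.23). In the other 5 conditions a single gene of this list passed 2-fold, namely the integrin subunit Itgb3 in glutamine depletion, from 14.4 to 41.1 TPM (1.45).

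The second list held 15 receptor-level regulators and SMADs, all above the background level. In glutamine depletion 3 of the 15 rose and 0 fell, where 3.21% of all genes rose and 3.21% fell. They were Skil, which encodes the SMAD corepressor SnoN, from 20.7 to 49.4 TPM (log2 change 1.22), the corepressor Tgif1 from 61.1 to 138 TPM (1.16) and Smad3 from 32.5 to 70.3 TPM (1.09). The list had a median of 0.05 there. In osmotic stress, where 3.08% of all genes rose, 2 of the 15 rose, Skil to 78.7 TPM (1.88) and Tgif1 to 157 TPM (1.34). Tgif1 was the 1 gene of the list that rose in oxidative stress, to 177 TPM (1.52), beside 3.94% of all genes. In ER stress, where 8.6% of all genes rose and 11% fell, 1 of the 15 rose and 2 fell. The median of the list was 0.17 in ER stress, against 0.00 for all genes, so this list was not shifted downward. Tgif1 rose to 147 TPM (1.25), while Smad6 fell to 12.1 TPM (-1.15) and Acvrl1, a type I receptor of the family, to 6.93 TPM (-1.03). No gene of this list passed 2-fold in glucose depletion or hypoxia. Skil and Tgif1 respond to many signals other than TGF-β.

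The third list held 15 genes known as targets of TGF-β in fibroblasts, all above the background level. Ctgf, which encodes a matricellular growth factor, rose in glutamine depletion, from 1177 to 3307 TPM (log2 change 1.49). It was the single gene of the list past 2-fold there, beside 3.21% of all genes that rose. The study reports Ctgf as induced by TGF-β but also names it among targets of the transcriptional coactivators YAP1 and TAZ. Bhlhe40, a transcriptional repressor, rose in hypoxia, from 49.7 to 105 TPM (1.07), beside 3.57% of all genes. In ER stress 3 of the 15 fell, beside 11% of all genes, and 0 rose. They were Col3a1, from 1479 to 352 TPM (-2.07), Cnn1, a calponin of contractile cells, from 262 to 80.03 TPM (-1.70), and Col5a1, from 671 to 288 TPM (-1.22). No gene of this list passed 2-fold in glucose depletion, oxidative stress or osmotic stress. A place in the list does not make a change, such as that of Bhlhe40 in hypoxia, a response to TGF-β. Whether TGF-β had a part in any of these changes was not tested. The median of the list was -0.83 in ER stress and 0.02 in glutamine depletion, against 0.00 and -0.09 for all genes.

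The ER stress library also had the lowest summed level of the 10 fibroblast markers, 6169.7 against 11432 TPM in the control, with 3 of the 10 past 2-fold downward, beside 11% of all genes. The part of this difference in the lower levels of the TGF-β genes was not tested. In glutamine depletion the same sum was 10659.6 TPM. The marker list is not separate from the pathway lists. Col1a1, Col1a2 and Col3a1 are also in the target list, where Col3a1 fell as well, and Dcn is also in the latent complex list.

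**Figure D5:**
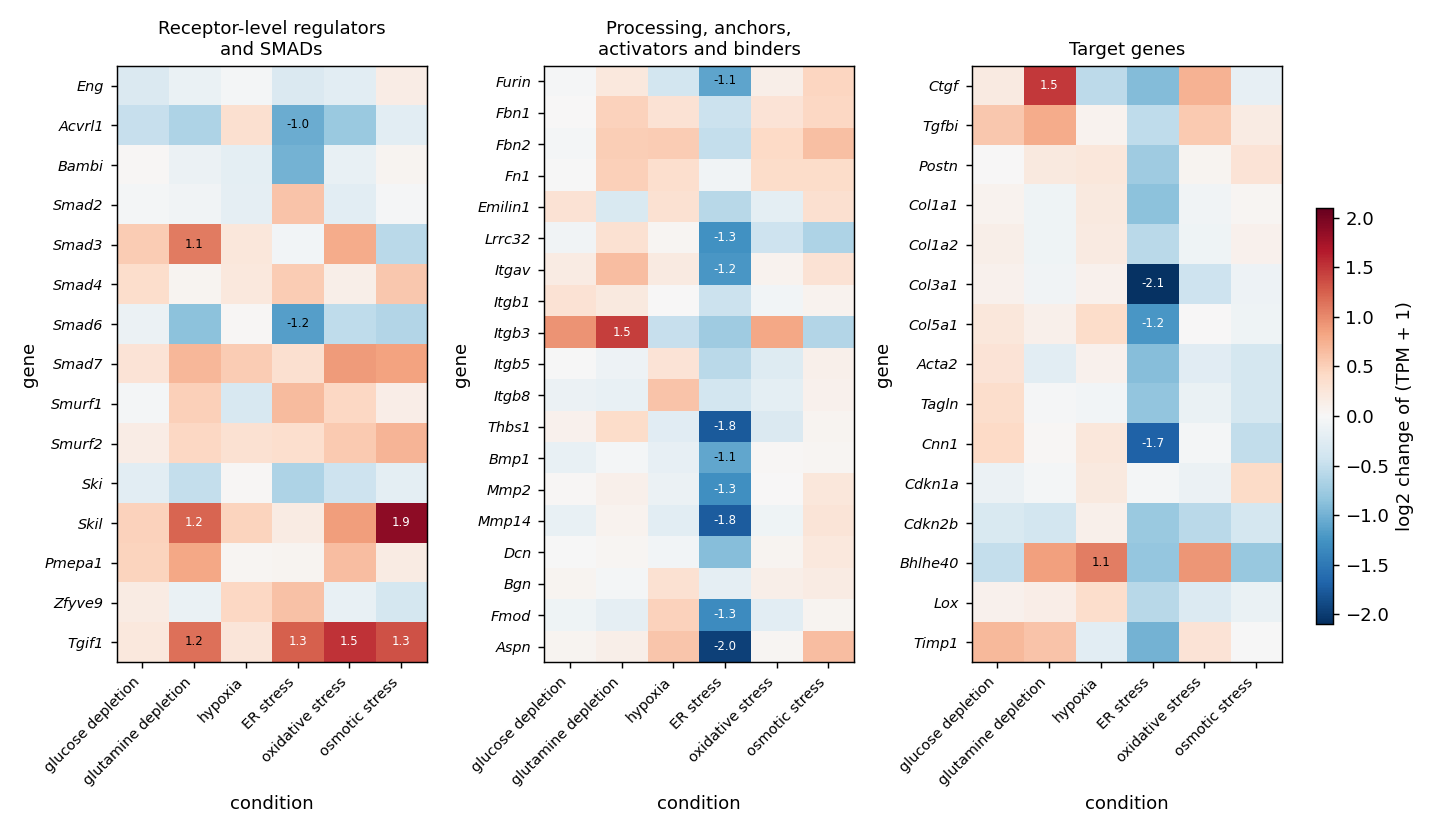
Log2 change of (TPM + 1) against the control for the 3 pathway lists (panels; genes in rows, conditions in columns; color gives the change and cells past 2-fold carry their value). The ER stress column of the middle panel holds 9 values from -1.95 to -1.08, and the glutamine depletion column holds the single value past 2-fold outside it, Itgb3 at 1.45.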

How the data were processed

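RNA-seq was performed on 7 libraries of wild type MEFs, each assigned to its condition by title and by the matching column name of the deposited table, with no column of values left over. Per the labels and the methods, the authors pseudoaligned reads with kallisto 0.43.1 at default settings against GRCm38 cDNA (Ensembl release 90), and the deposited TPM are sums over each gene's transcripts. These settings do not use strand, so transcripts that overlap on opposite strands may share reads. TPM holds no counts, so the depth of a library is unknown.

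From the deposited TPM, log2(TPM + 1) was taken and the control value subtracted. The pseudocount of 1 TPM and the 2-fold limit follow the study's methods. The background was the 12909 of 49382 genes that averaged 2 TPM or more. No test was made, since each condition had 1 library. Positions and gene types came from GENCODE M21 on GRCm38. As alternatives, the pseudocount was set to 0.1 or 5 TPM, and the analysis was repeated with no filter or a filter at an average of 10 TPM, subtraction of the overall median, leaving out mitochondrially encoded genes, limits of 1.5-fold and 3-fold, the median of the other 6 libraries as the reference, and protein-coding genes alone. The ratio of TPM without a pseudocount was added after the data were seen. The named genes are the 10 members, up to 3 largest rises and falls of each pathway list and condition past 2-fold, the 3 genes with the most similar profile for each ligand past 2-fold, and a check gene per treatment. Furin, Itgav, Lrrc32 and Kdr were named after their values were seen. The members and lists were chosen with earlier results of these data known. One gene of the target list and one overlapping gene are not reported here. The 2-fold count, and no other step, was tested on simulated libraries. These had planted changes well past the limit, in genes with at least 10 TPM in the control. Scripts ran under Python 3.11.15 with pandas 2.3.3 and numpy 2.4.6, and plots were drawn with matplotlib 3.10.9.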

Additional observations from a re-analysis of the deposited data

How the results depend on the processing

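The count of genes past 2-fold in ER stress, 4 of 10, was 3 with a pseudocount of 5 TPM and 5 with the median of the other 6 libraries as the reference. It was 6 with a limit of 1.5-fold and 2 with a limit of 3-fold. In glutamine depletion the count of 0 became 1 with a pseudocount of 0.1 TPM, with mitochondrially encoded genes removed or with no pseudocount (Tgfbr1 in each), and 2 after centring or with a limit of 1.5-fold (Tgfb1 and Tgfbr1). In oxidative stress it became 1 (Tgfbr1) with a limit of 1.5-fold. In glucose depletion, hypoxia and osmotic stress the count was 0 under every alternative run. The share of all genes past the limit also moved. In ER stress it was 19.6%, but 11.8% with a pseudocount of 5 TPM and 7.20% with no filter, and in glucose depletion it was 4.24%, but 1.04% among protein-coding genes. The cause of these shifts was not tested. No change past 2-fold reversed its sign. Of the 60 changes, 10 changed sign with the median of the other 6 libraries as the reference and 5 after centring, all with sizes up to 0.18 against the control. No paired analysis was possible because each condition had 1 library. Without replicates, the variation between cultures was not measured.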

Other observations

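The genes whose 6 changes were closest to those of Tgfb3, by the root mean square difference over the background genes, were S100a13 (0.214 log2 units), Tpm1 (0.214) and P3h4 (0.222). S100a13 encodes a calcium-binding protein and went from 79.7 TPM in the control to 11.2 TPM in ER stress. Tpm1, a tropomyosin of actin filaments, went from 3034 to 672 TPM, and P3h4, part of an ER complex that modifies collagen, from 246 to 38.8 TPM. For Tgfb2 the closest were Olfml2a (0.136), Mgp (0.138) and Adgre5 (0.178). Olfml2a was weakly expressed and dropped from 2.81 to 0.18 TPM under thapsigargin, a level below the pseudocount of 1 TPM. Its log2 change of -1.69 there therefore depends strongly on the pseudocount, and so does its first place. Mgp, which encodes matrix Gla protein, went from 2824 to 935 TPM in ER stress, and Adgre5 from 63.5 to 23.5 TPM. By Pearson r over the 7 libraries, Mgp was closest to Tgfb2 (0.993), while Tiam1 was closest to Tgfb3 (0.997), with Tpm1 at 0.993. The ER stress library dominates both measures and all changes share the control library, so they are given as a description.

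Among the markers of other cell types, the keratin Krt19 went from 41.6 TPM in control cells to 155.5 TPM in hypoxia and Krt18 from 5.56 to 3.57 TPM, while Epcam and Cdh1 were each below 1 TPM in every library. The muscle actin Acta1 was at 80.3 TPM in the control, 152 TPM in glucose depletion and 37.3 TPM in ER stress, with Myod1 and Myog each below 1 TPM in every library. Des, the other muscle marker at the background level, was at 35.7 TPM in control cells, 34.8 without glucose and 13.6 in ER stress, so that both were lower in ER stress but Des was not higher without glucose. These genes were named after their values were seen. The integrin subunit Itgb3 was at 28.7 TPM in glucose depletion (log2 change 0.95) and 25.9 TPM in oxidative stress (0.81), and was below the control in hypoxia, ER stress and osmotic stress.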
